A study of Rattus norvegicus with 18 samples.

Results

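Gene expression after 50 electric pulses was compared with that after 10 pulses in PE-treated H9C2 cells, which are cultured rat cells first grown from embryonic heart tissue. The comparison uses 6 of the 18 libraries of the series, the 3 of group P_ES50 and the 3 of group P_ES10, which were taken by their group labels, and it covers all genes of the deposited table. P_ES50 cells received 50 pulses and P_ES10 cells 10 pulses, each of 100 µs at 1500 V/cm, and both groups had been exposed to PE at 50 µmol/L for 48 h before the pulses. What PE stands for and the time between pulses and harvest are not given in the labels. The ES50 and ES10 groups had the same pulses but no PE, and the P group had PE and no pulses, with 3 libraries each. Their values are set beside those compared. These groups and the NC group, without pulses or PE, also entered the filter and the fit. The spread of each gene was thus estimated over all 18 libraries. The labels number the replicates without naming separate cultures, so p-values measure the spread between these libraries, which may be technical.

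Strong short electric pulses open pores in the plasma membrane, let ions flow in and out, and can also reach organelle membranes. Cells reseal such pores with annexins, the muscle protein TRIM72 and the ESCRT machinery, and they answer ionic, oxidative and protein damage through transcription programs such as the immediate early genes, NRF2, ATF4 and heat shock factor. The mitochondrial genome encodes 13 subunits of the respiratory chain and ATP synthase, which are read from both strands as long precursors and cut into single mRNAs.

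P_ES50 libraries held 14979183 to 16006346 reads on genes and P_ES10 libraries 14491030 to 15718955. Reads were recovered from the deposited FPKM values, which count fragments relative to gene length and to a factor per library. That factor did not follow the total of reads on genes, since scaling to that total moved the median gene, as given below. Reads on nuclear genes numbered 7813779 to 8060502 in P_ES50 and 13542057 to 14651215 in P_ES10, so low nuclear genes were measured with less precision in P_ES50. Under the deposited scaling the median tested gene lay near 0 for P_ES50 over P_ES10 (-0.018), and at -0.13 for ES50 over ES10. Changes below are on this scale, and so nearly relative to the median gene for P_ES50 over P_ES10. Scaling to total reads instead moved the median gene by -0.68 on the log2 scale, and scaling to nuclear reads moved it by 0.044. Of 11 cardiomyocyte markers, 3 (Tnnt2, Tnni3 and Pln) had a mean of at least 1 FPKM in either group, and Myl2 and Nkx2-5 had no reads in P_ES50, so the cell type given as myocardium was not borne out by the markers that define contracting heart muscle cells. Of 5 endothelial markers, 0 reached that level in either group. Smooth muscle markers reached it in 6 of 6 cases, at a summed 2775 to 2842 FPKM in P_ES50 and 2414 to 2463 FPKM in P_ES10. Skeletal myoblast markers reached it in 3 of 8 cases in each group, with Pax7 at 0 in both. They summed to 132 to 136 FPKM in P_ES50 and 125 to 128 FPKM in P_ES10. Fibroblast markers reached it in 4 of 8 cases in P_ES50 and 5 of 8 in P_ES10. Their sum was 2139 to 2538 FPKM in P_ES50 and 2784 to 3125 FPKM in P_ES10. Those that reached it were the matrix genes Col1a1, Col1a2, Col3a1 and Postn, and in P_ES10 also Lum. Tcf21 was at 0 in both groups, Dcn had 1 read in P_ES50 and 8 in P_ES10, and Pdgfra 2 and 7. Macrophage markers summed to 4.12 to 6.15 FPKM in P_ES50 and 6.51 to 7.46 FPKM in P_ES10, with Ptprc and Adgre1 at 0 in both.

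The main difference between 50 and 10 pulses with PE lay in the transcripts of the mitochondrial genome. Its 37 genes took 49.5%, 46.7% and 49.6% of the reads in the P_ES50 libraries, against 6.79%, 6.05% and 6.55% in the P_ES10 libraries. The groups did not overlap, with means of 48.6 ± 1.66% in P_ES50 and 6.46 ± 0.377% in P_ES10 (SD, n = 3 each), a difference of 42.2 percentage points. An exact two-sided permutation test gave p = 0.1, the smallest value that 3 against 3 can reach. P cells without pulses stood at 5.48 ± 0.104%, so the share at 0, 10 and 50 pulses was 5.48%, 6.46% and 48.6%. Without PE the same pulses gave 92.1 ± 0.728% in ES50 and 9.44 ± 0.319% in ES10. By shares of reads from whole cultures, fewer cells holding nuclear-encoded mRNA, less such mRNA per cell and more mitochondrial RNA cannot be told apart.

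All 13 mRNAs of the mitochondrial genome rose, as did both of its rRNAs and 12 of its 19 tested tRNAs. The median log2 change of the 13 mRNAs was 3.65 under the deposited scaling and 2.84 when scaled to total reads. Across 11917 genes tested with limma on log2(FPKM + 1), 2784 were called at a Benjamini-Hochberg adjusted p under 0.05, which is 23.4% of all tested genes. Of these, 1249 were higher in P_ES50 (10.5% of tested genes) and 1535 lower (12.9%). Mt-nd6, a complex I subunit and the only mRNA read from the other strand, is the most changed of the 13 (chromosome MT, 13543 to 14061, minus strand, build Rnor 6.0). Its level was 14967, 12714 and 14622 FPKM in P_ES50, against 724, 671 and 787 FPKM in P_ES10. That is a log2 fold change of 4.27 ± 0.10 (standard error, limma adjusted p = 1.01e-13). The groups did not overlap, as was so in that direction for 21.5% of all tested genes. Mt-co1, the catalytic subunit of cytochrome c oxidase, averaged 107326 ± 4892 FPKM in P_ES50 and 8361 ± 498 FPKM in P_ES10, and its change of 3.68 ± 0.09 (limma adjusted p = 1.06e-13) turned to -0.20 after quantile normalization. Mt-cox3, another subunit of that enzyme, changed by 3.78 ± 0.08 (limma adjusted p = 3.21e-14), which became -0.030 after quantile normalization, a step that forces the highest ranks of all libraries to the same values.

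The mitochondrial mRNAs did not move by the same factor. Mt-nd4l, a small subunit of complex I, averaged 2157 ± 140.0 FPKM in P_ES50 and 817 ± 54.1 FPKM in P_ES10, the smallest change of the 13 at 1.40 ± 0.09 (limma adjusted p = 5.09e-08). Mt-nd5, a large complex I subunit, averaged 2388 ± 78.7 FPKM in P_ES50 and 526 ± 21.5 FPKM in P_ES10, a change of 2.18 ± 0.05 (limma adjusted p = 1.81e-13). Within the reads on mitochondrial mRNAs, Mt-nd5 therefore made up 0.864 ± 0.0276% in P_ES50 and 2.54 ± 0.0741% in P_ES10, and Mt-nd4l 0.127 ± 0.00614% in P_ES50 and 0.639 ± 0.0103% in P_ES10. Mt-atp6, a subunit of ATP synthase, made up more, at 16.05 ± 0.319% in P_ES50 and 13.5 ± 0.0508% in P_ES10. Mt-nd6 made up 1.44 ± 0.0375% in P_ES50 and 0.994 ± 0.0638% in P_ES10. The 3 libraries of one group lay on one side of the other 3 for each of these shares. Mt-nd4l overlaps Mt-nd4, Mt-atp8 overlaps Mt-atp6 and Mt-nd5 overlaps Mt-nd6 at their ends. The strandedness of the libraries is not given in the sources used here. Reads in the overlap of Mt-nd5 and Mt-nd6 therefore cannot be told apart. Reads on the rest of Mt-nd6 may likewise include RNA of the opposite strand.

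**Figure D1:**
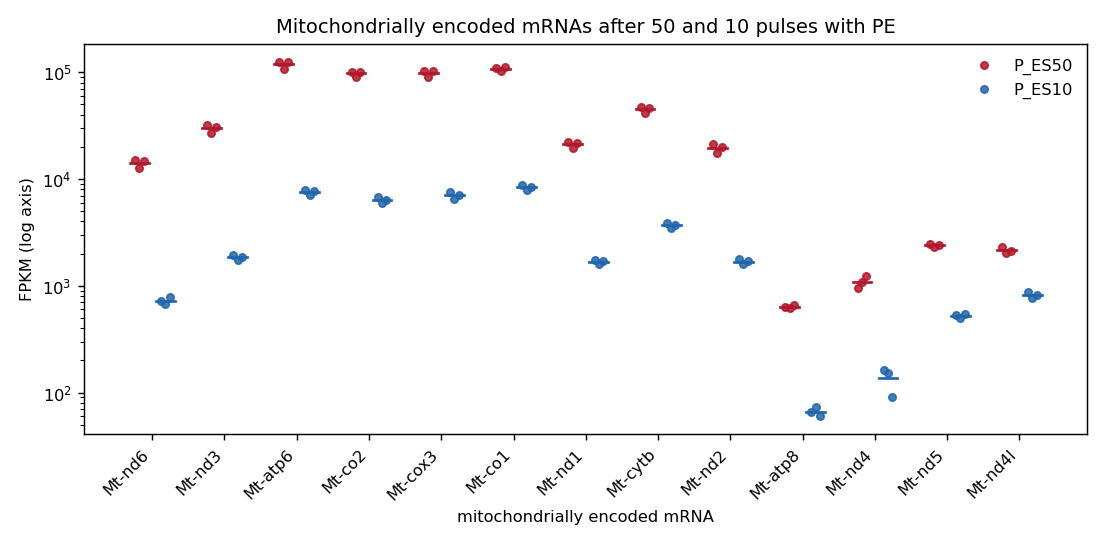
FPKM on a log axis of the 13 mRNAs of the mitochondrial genome, with 1 point per library and a line at the mean of 3, P_ES50 left of P_ES10. All 13 are higher in P_ES50, by between 1.40 and 4.27 on the log2 scale; under quantile normalization Mt-co1 and Mt-cox3 turn to -0.20 and -0.030.

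Among nuclear genes 1222 rose and 1535 fell, and most changes were small. At least 2-fold changes numbered 29 nuclear genes that rose and 147 that fell. The median absolute log2 change over all tested genes was 0.187, against 0.699 for the same pulses without PE. Of all calls, 44.9% were higher under the deposited scaling. Scaling to nuclear reads gave 1660 higher and 1246 lower genes, or 57.1% higher, and scaling to total reads gave 55 higher and 10348 lower. Scaling to total reads shifts all nuclear genes down, so a gene that fell stays below 0 there by construction, and of the 1222 nuclear genes that rose 86 stayed above 0. All 1535 genes that fell were also below 0 scaled to nuclear reads and after quantile normalization. With nuclear reads thinned to the same number in all 6 libraries, 3392 genes were called in a fit of those libraries alone.

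**Figure D2:**
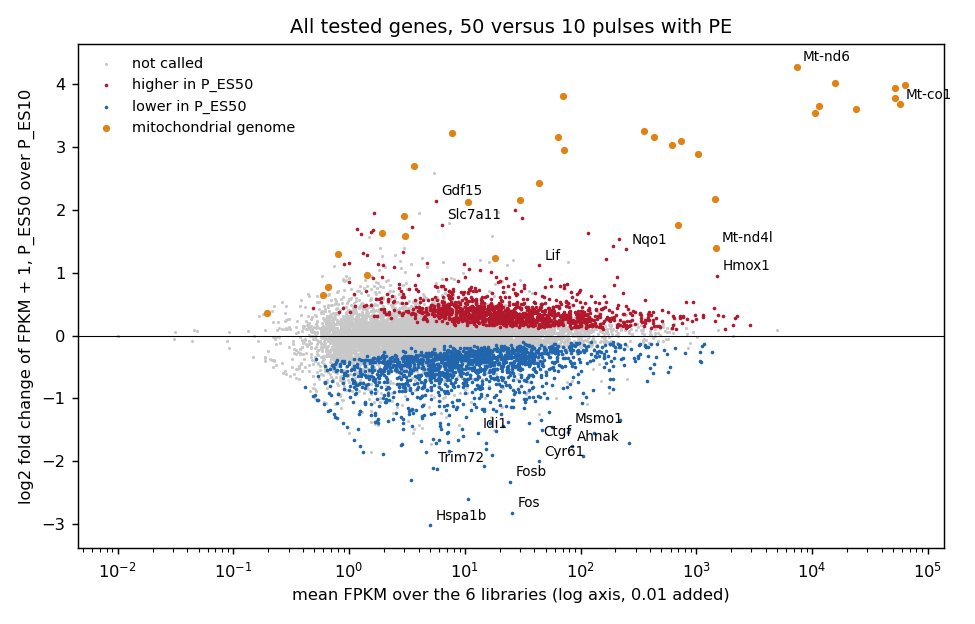
Log2 fold change of P_ES50 over P_ES10 for all 11917 tested genes against mean FPKM over the 6 libraries on a log axis, with called genes in colour (1249 higher, 1535 lower) and genes of the mitochondrial genome as large points. Scaled to total reads, the median tested gene moves down by 0.68, and low genes by less than high ones.

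Genes of the antioxidant response formed the clearest group of nuclear genes that rose. NRF2 is a transcription factor that escapes degradation under oxidative or electrophilic stress and then drives genes of glutathione synthesis, thiol reduction and detoxification. Of 19 tested NRF2 targets, 17 rose and 0 fell, against 10.5% and 12.9% of all tested genes. Their median log2 change was 0.43, against -0.018 over all genes, but -0.37 when scaled to total reads, where the median of all genes was -0.70. Slc7a11, the cystine importer that feeds glutathione synthesis, stood at 10.2, 10.3 and 10.3 FPKM in P_ES50, against 2.25, 2.10 and 2.61 FPKM in P_ES10 (1.77 ± 0.10, limma adjusted p = 4.40e-09). All 3 P_ES50 libraries were about alike and far above the P_ES10 libraries. Nqo1, a quinone reductase, stood at 338, 370.0 and 359 FPKM in P_ES50, against 134, 139 and 137 FPKM in P_ES10 (1.37 ± 0.05, limma adjusted p = 1.31e-11). P cells without pulses had 143 ± 0.803 FPKM of Nqo1, close to the level after 10 pulses.

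Hmox1, which encodes the heme-degrading heme oxygenase 1, rose in steps with the number of pulses. It stood at 1978, 2019 and 2012 FPKM in P_ES50, against 1025, 1009 and 1069.8 FPKM in P_ES10 (0.95 ± 0.08, limma adjusted p = 1.04e-06). At 0, 10 and 50 pulses with PE its mean was 149, 1035 and 2003 FPKM. Gsr, glutathione reductase, averaged 24.7 ± 0.466 FPKM in P_ES50 and 12.4 ± 0.704 FPKM in P_ES10 (0.94 ± 0.11, limma adjusted p = 1.39e-05), and its level in P cells was 12.3 ± 1.10 FPKM. Akr1b8, an aldo-keto reductase that clears reactive aldehydes, averaged 280.5 ± 9.37 FPKM in P_ES50 and 104 ± 4.65 FPKM in P_ES10 (1.42 ± 0.08, limma adjusted p = 1.33e-08). Aldh3a1, an aldehyde dehydrogenase, was low in both groups, at 2.41 ± 0.439 FPKM from 187 reads in P_ES50 and 0.112 ± 0.00466 FPKM from 15 reads in P_ES10 (1.61 ± 0.13, limma adjusted p = 3.06e-07). Osgin1, a stress-induced growth inhibitor, rose by 1.09 ± 0.32 (limma adjusted p = 0.0216), a call lost without any 1 of 4 libraries (adjusted p 0.0514 to 0.0768). These 7 genes remained above 0 when scaled to total reads, from 0.15 for Hmox1 to 1.46 for Aldh3a1. That scaling moved low genes by less than high ones, so low genes stayed above 0 more readily.

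The targets of ATF4, a transcription factor made when translation is slowed by stress, changed mainly in the same direction. Of 25 tested members, 15 rose and 3 fell, where 10.5% and 12.9% of all tested genes did. The median was 0.38, which was -0.38 when scaled to total reads. Gdf15, a secreted stress cytokine, showed the largest increase among the nuclear genes under the naming rule (chromosome 16, 20555395 to 20557978, plus strand, build Rnor 6.0). Its level was 8.93, 11.2 and 9.35 FPKM in P_ES50, against 1.13, 1.48 and 1.72 FPKM in P_ES10 (2.15 ± 0.18, limma adjusted p = 6.18e-07). P cells had 0.839 ± 0.248 FPKM, near the P_ES10 level. Trib3, a pseudokinase induced by amino acid shortage, averaged 30.1 ± 1.30 FPKM in P_ES50 and 16.9 ± 0.103 FPKM in P_ES10 (0.79 ± 0.08, limma adjusted p = 4.70e-06). Genes of serine synthesis were among those that rose, with Phgdh by 0.67 ± 0.09 and Psph by 0.80 ± 0.10 (limma adjusted p = 9.64e-05 and 3.03e-05), at -0.11 and 0.02 when scaled to total reads. Atf4 itself fell slightly, by 0.18 ± 0.06 (limma adjusted p = 0.0482), and so did Ppp1r15a, a phosphatase subunit that restores translation, by 0.74 ± 0.10 (limma adjusted p = 4.53e-05). Ddit3, a pro-apoptotic factor of the same pathway, had 52.9 ± 4.47 FPKM in P_ES50 and 39.9 ± 2.73 FPKM in P_ES10 and did not pass the test (0.40 ± 0.18, limma adjusted p = 0.123), though it passed without the 3 ES50 libraries in the fit (adjusted p = 0.000137). Of 22 genes of the endoplasmic reticulum unfolded protein response, 1 rose and 4 fell, with a median of -0.084; at 22.7% called the list was near the 23.4% of all genes.

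Several signalling genes rose outside these lists. Phlda1, an early response gene linked to growth factor signalling, averaged 232 ± 4.18 FPKM in P_ES50 and 99.3 ± 5.46 FPKM in P_ES10 (1.22 ± 0.04, limma adjusted p = 1.31e-11). Lif, a cytokine of the interleukin-6 family, stood at 64.4, 58.4 and 59.6 FPKM in P_ES50, against 28.2, 28.2 and 26.2 FPKM in P_ES10 (1.12 ± 0.13, limma adjusted p = 1.63e-05). At 0, 10 and 50 pulses Lif averaged 16.3, 27.5 and 60.8 FPKM. Plk3, a stress-activated kinase, averaged 18.5 ± 0.896 FPKM in P_ES50 and 8.44 ± 0.237 FPKM in P_ES10 (1.04 ± 0.17, limma adjusted p = 2.74e-04). All 3 stayed above 0 when scaled to total reads, at 0.42, 0.33 and 0.30. Vegfa, the angiogenic growth factor, averaged 90.5 ± 2.48 FPKM in P_ES50 and 53.2 ± 3.12 FPKM in P_ES10 (0.76 ± 0.07, limma adjusted p = 7.89e-07), a change that was -0.04 when scaled to total reads. The pseudogene Rps27a-ps1 also ranked among the largest increases (1.53 ± 0.29, limma adjusted p = 1.19e-03), but the division of reads between it and the functional gene is uncertain.

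**Figure D3:**
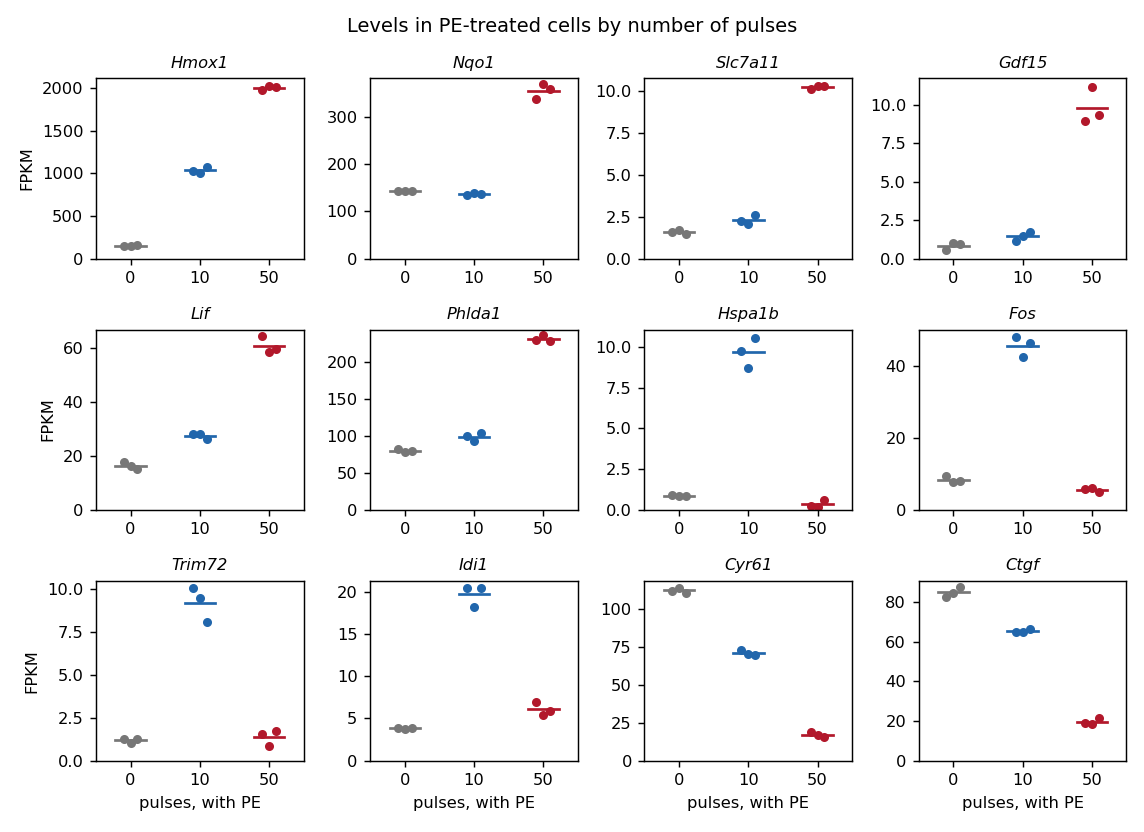
FPKM of 12 genes in PE-treated cells at 0, 10 and 50 pulses (groups P, P_ES10 and P_ES50), with 1 point per library and a line at the mean of 3. Hmox1 and Lif are higher at each step, Hspa1b, Fos, Trim72 and Idi1 are high only at 10 pulses among these 3 groups, and Cyr61 and Ctgf are lower at each step.

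Immediate early genes, which are transcribed within minutes of a signal and have short-lived mRNAs, were lower after 50 than after 10 pulses. Of 29 tested members, 12 fell and 4 rose (12.9% and 10.5% of all tested genes did), with a median of -0.18. Fos, a subunit of the AP-1 transcription factor, stood at 5.82, 6.0001 and 5.07 FPKM in P_ES50, against 48.2, 42.8 and 46.5 FPKM in P_ES10 (-2.82 ± 0.12, limma adjusted p = 1.44e-10). Fosb, its paralog, averaged 7.59 ± 0.537 FPKM in P_ES50 and 42.0 ± 1.04 FPKM in P_ES10 (-2.32 ± 0.13, limma adjusted p = 8.20e-09). Klf4 and Klf2, zinc finger transcription factors, fell by 2.08 ± 0.21 and 1.80 ± 0.15 (limma adjusted p = 4.04e-06 and 4.28e-07). In P cells without pulses Fos averaged 8.38 FPKM, Fosb 6.38 FPKM, Klf4 5.59 FPKM and Klf2 6.86 FPKM, and of these 4 genes Fos was called lower in P_ES50 than in P (-0.50 ± 0.12, limma adjusted p = 5.04e-03), while the other 3 did not pass that test. The fall was not general. Egr1 had 22.3 ± 0.832 FPKM in P_ES50 and 24.7 ± 3.01 FPKM in P_ES10 (-0.14 ± 0.14, limma adjusted p = 0.515), with 6.797 ± 1.17 FPKM in P cells. Myc had 49.3 ± 1.67 FPKM in P_ES50 and 44.7 ± 1.37 FPKM in P_ES10 (0.14 ± 0.16, limma adjusted p = 0.601), with 14.6 ± 1.53 FPKM in P cells. Dusp1, a phosphatase that switches off MAP kinases, fell by 1.45 ± 0.08 (limma adjusted p = 8.93e-09), whereas its relative Dusp5 rose by 0.66 ± 0.06 (limma adjusted p = 1.14e-06, -0.14 when scaled to total reads).

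Of 21 tested heat shock chaperones, 8 fell and 2 rose (12.9% and 10.5% of all tested genes did), with a median of -0.16. Hspa1b, the stress-inducible form of HSP70, had the largest decrease of all named nuclear genes. It stood at 0.253, 0.138 and 0.597 FPKM in P_ES50, from 36 reads in all, against 9.76, 8.71 and 10.6 FPKM in P_ES10, from 1810 reads (-3.02 ± 0.18, limma adjusted p = 1.38e-08). Hspa1a is a nearly identical gene, so the division of reads between both is uncertain. The groups did not overlap, which the rule for naming the largest decreases required, and P cells had 0.855 ± 0.0436 FPKM of Hspa1b. Dnajb4, a co-chaperone, averaged 26.0 ± 1.03 FPKM in P_ES50 and 54.4 ± 3.29 FPKM in P_ES10 (-1.03 ± 0.06, limma adjusted p = 8.71e-09). Hsph1, a nucleotide exchange factor of HSP70, averaged 142 ± 4.34 FPKM in P_ES50 and 208 ± 8.34 FPKM in P_ES10 (-0.54 ± 0.05, limma adjusted p = 6.22e-07). Against P cells, 16 chaperones rose and 1 fell after 10 pulses, and 13 rose and 1 fell after 50 pulses. Of all tested genes 13.2% and 14.1% rose and 9.66% and 14.2% fell in these comparisons. They share libraries with each other and with the comparison of P_ES50 and P_ES10.

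Genes of membrane repair split. Of 29 tested members, 6 rose and 8 fell, where 10.5% and 12.9% of all tested genes did. The median was -0.051, which was 0.005 when scaled to nuclear reads. Trim72, which nucleates repair patches at membrane wounds in muscle, stood at 1.56, 0.877 and 1.76 FPKM in P_ES50, against 10.0, 9.46 and 8.07 FPKM in P_ES10 (-2.10 ± 0.25, limma adjusted p = 1.94e-05). Ahnak, a very large scaffold protein found at repaired membranes, stood at 38.4, 37.6 and 37.1 FPKM in P_ES50, against 133, 129 and 127 FPKM in P_ES10 (-1.76 ± 0.04, limma adjusted p = 9.30e-14). P cells had 1.18 ± 0.146 FPKM of Trim72 and 75.6 ± 3.67 FPKM of Ahnak, so Trim72 at 50 pulses was near the unpulsed level and Ahnak below it. Anxa1, an annexin that binds damaged membranes with calcium, and Cav1, the coat protein of caveolae, fell by 0.50 ± 0.03 and 0.49 ± 0.05 (limma adjusted p = 3.84e-08 and 1.63e-06). Pdcd6ip, an ESCRT-linked adaptor, fell by 0.11 ± 0.03 (limma adjusted p = 0.0358). The members that rose, by 0.14 to 0.38, were the annexins Anxa7 and Anxa6, S100a11 and the ESCRT genes Chmp3, Chmp1a and Tsg101, so annexins and ESCRT genes stood on both sides; those that rose were below 0 when scaled to total reads.

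Further large decreases were found in genes of varied function. Myadm, a membrane protein of the myeloid-associated differentiation family, averaged 43.7 ± 2.56 FPKM in P_ES50 and 168 ± 2.00 FPKM in P_ES10 (-1.92 ± 0.07, limma adjusted p = 5.01e-11). Serpinb2, a plasminogen activator inhibitor, averaged 1.42 ± 0.112 FPKM in P_ES50 and 7.82 ± 0.963 FPKM in P_ES10 (-1.86 ± 0.11, limma adjusted p = 1.70e-08). In P cells Myadm averaged 54.6 FPKM and Serpinb2 1.71 FPKM. Both were thus highest at 10 pulses among the 3 PE groups. They were named for their fall from P_ES10 to P_ES50, and the same P_ES10 libraries are set against P cells here.

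Of 18 tested NF-kB targets and cytokine genes, 6 fell and 2 rose, where 12.9% and 10.5% of all tested genes did. The median was -0.24. Those that fell include 2 feedback inhibitors of the pathway. Nfkbia, which holds NF-kB in the cytoplasm, averaged 19.2 ± 1.15 FPKM in P_ES50 and 51.8 ± 0.586 FPKM in P_ES10 (-1.39 ± 0.15, limma adjusted p = 9.55e-06). Tnfaip3, a ubiquitin-editing enzyme, averaged 2.34 ± 0.377 FPKM in P_ES50 and 9.59 ± 0.990 FPKM in P_ES10 (-1.67 ± 0.19, limma adjusted p = 1.14e-05). Ptgs2, the inducible cyclooxygenase, rose along with Lif, with 47.0 ± 1.77 FPKM in P_ES50 and 32.1 ± 1.10 FPKM in P_ES10 (0.54 ± 0.11, limma adjusted p = 2.03e-03), but it was at -0.25 when scaled to total reads. Il6 had 3.09 ± 0.548 FPKM in P_ES50 and 3.16 ± 0.570 FPKM in P_ES10 and did not pass the test (limma adjusted p = 0.952).

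Cholesterol synthesis genes were lower after 50 than after 10 pulses. These genes are driven by the transcription factor SREBP2, which is released from the endoplasmic reticulum when membrane sterol is low and acts together with NF-Y, a factor that binds CCAAT. Of 24 tested members, 15 fell and 0 rose, with a median of -0.58, whereas 12.9% of all tested genes fell. Idi1, which isomerizes the isoprenoid building block, stood at 6.90, 5.44 and 5.86 FPKM in P_ES50, against 20.5, 18.1 and 20.5 FPKM in P_ES10 (-1.55 ± 0.07, limma adjusted p = 1.01e-09). Hmgcs1, the enzyme that makes HMG-CoA, stood at 23.0, 24.1 and 24.6 FPKM in P_ES50, against 70.05, 68.6 and 69.0 FPKM in P_ES10 (-1.50 ± 0.05, limma adjusted p = 2.11e-11). Msmo1, a sterol methyl oxidase, averaged 41.4 ± 1.42 FPKM in P_ES50 and 118 ± 2.20 FPKM in P_ES10 (-1.48 ± 0.11, limma adjusted p = 1.13e-07). No P_ES50 library reached a P_ES10 library for these 3 genes, as was so in that direction for 26.5% of all tested genes. Against P cells, 16 of the 24 genes rose and 0 fell after 10 pulses, and 8 rose and 2 fell after 50 pulses. These 2 comparisons share the P libraries with each other, and each shares its pulsed libraries with the comparison of P_ES50 and P_ES10. In them 13.2% and 14.1% of all tested genes rose and 9.66% and 14.2% fell. The P means were 3.82 FPKM for Idi1, 22.5 FPKM for Hmgcs1 and 62.3 FPKM for Msmo1.

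The promoters of these 3 genes are shown with the motif CCAAT, on either strand, in capitals (ATTGG is its reverse complement). Each runs from 250 bases before to 50 bases after the transcription start, 5′ to 3′ on the gene's strand, from RefSeq, build GRCr8. Idi1 is at chr17:66547475-66547774 on the minus strand, Hmgcs1 at chr2:53382054-53382353 on the plus strand and Msmo1 at chr16:29746863-29747162 on the plus strand.
Idi1: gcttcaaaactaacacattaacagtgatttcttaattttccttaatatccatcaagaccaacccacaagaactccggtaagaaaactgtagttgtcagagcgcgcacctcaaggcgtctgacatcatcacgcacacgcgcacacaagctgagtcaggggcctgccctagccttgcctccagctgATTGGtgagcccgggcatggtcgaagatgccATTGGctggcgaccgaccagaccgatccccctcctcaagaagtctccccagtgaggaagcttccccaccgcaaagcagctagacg
Hmgcs1: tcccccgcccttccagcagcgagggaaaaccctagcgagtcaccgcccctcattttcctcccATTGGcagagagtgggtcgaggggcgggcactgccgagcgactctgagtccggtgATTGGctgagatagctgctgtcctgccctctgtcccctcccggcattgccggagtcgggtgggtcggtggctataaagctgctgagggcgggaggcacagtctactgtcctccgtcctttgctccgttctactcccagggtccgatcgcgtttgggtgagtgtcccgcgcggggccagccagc
Msmo1: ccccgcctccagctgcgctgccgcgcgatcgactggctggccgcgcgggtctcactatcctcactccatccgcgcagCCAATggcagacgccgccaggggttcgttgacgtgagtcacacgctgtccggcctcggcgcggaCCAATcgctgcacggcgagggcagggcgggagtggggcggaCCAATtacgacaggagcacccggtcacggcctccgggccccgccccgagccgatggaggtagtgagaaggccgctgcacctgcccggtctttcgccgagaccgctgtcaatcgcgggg
Of the 15 cholesterol genes that fell, 11 matched a RefSeq promoter window and 9 of these held CCAAT, as did 37.5% of all 33469 windows. A sterol element spelled TCACNCCAC, searched on both strands, was found in 0 of the 11 and in 1.12% of all windows. The windows and motifs were chosen after the changes were known, and a match describes letters and not binding. Cholesterol genes that did not fall were not searched.

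Targets of YAP and SRF, factors that read cell shape, stretch and the actin cytoskeleton, moved in both directions. Of 23 tested members, 9 fell and 4 rose (12.9% and 10.5% of all tested genes did), with a median of -0.13. Cyr61, a matricellular protein and a widely used YAP readout, stood at 18.7, 16.9 and 15.5 FPKM in P_ES50, against 72.9, 70.4 and 69.6 FPKM in P_ES10 (-1.999 ± 0.06, limma adjusted p = 5.51e-12). Ctgf, its relative, stood at 19.1, 18.5 and 21.4 FPKM in P_ES50, against 64.8, 64.6 and 66.3 FPKM in P_ES10 (-1.68 ± 0.07, limma adjusted p = 1.54e-10). Amotl2, which binds and restrains YAP, averaged 6.72 ± 0.640 FPKM in P_ES50 and 27.7 ± 1.39 FPKM in P_ES10 (-1.90 ± 0.07, limma adjusted p = 6.65e-11). At 0, 10 and 50 pulses Cyr61 averaged 112, 71.0 and 17.1 FPKM and Ctgf 84.8, 65.2 and 19.7 FPKM, both lower at each step, while Amotl2 averaged 23.7, 27.7 and 6.72 FPKM. Ankrd1, a muscle stress gene of the same list, had 115 ± 8.02 FPKM in P_ES50 and 125 ± 6.76 FPKM in P_ES10 and did not pass the test (-0.13 ± 0.06, limma adjusted p = 0.126). Acta2, smooth muscle actin, rose by 0.31 ± 0.03 (limma adjusted p = 1.19e-05), which turned to -0.34 after quantile normalization and was -0.50 when scaled to total reads. Of the other members that fell, Axl, Myl9, Flna and Tpm1 did so by 0.15 to 0.21. Birc5, an inhibitor of apoptosis with a role in mitosis, rose by 0.46 ± 0.10 (limma adjusted p = 4.43e-03, -0.32 when scaled to total reads). Actb and Actg1, the cytoplasmic actins, rose by 0.32 ± 0.04 and 0.28 ± 0.05 (limma adjusted p = 3.58e-05 and 9.82e-04), and both were below 0 when scaled to total reads.

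The promoters of the 3 genes that fell most are shown with the motif GGAATG, which TEAD factors, the DNA-binding partners of YAP, recognize, in capitals (CATTCC on the other strand). The windows have the same length and source. Cyr61 (Ccn1 in RefSeq) is at chr2:237225640-237225939 on the minus strand, Ctgf (Ccn2) at chr1:22624565-22624864 on the minus strand and Amotl2 at chr8:112182376-112182675 on the plus strand.
Cyr61: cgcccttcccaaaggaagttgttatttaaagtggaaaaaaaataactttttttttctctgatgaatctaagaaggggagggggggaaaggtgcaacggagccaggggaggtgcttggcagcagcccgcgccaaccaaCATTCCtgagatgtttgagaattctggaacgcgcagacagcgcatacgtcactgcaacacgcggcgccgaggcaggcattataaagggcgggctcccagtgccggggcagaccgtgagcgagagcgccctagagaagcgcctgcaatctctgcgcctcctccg
Ctgf: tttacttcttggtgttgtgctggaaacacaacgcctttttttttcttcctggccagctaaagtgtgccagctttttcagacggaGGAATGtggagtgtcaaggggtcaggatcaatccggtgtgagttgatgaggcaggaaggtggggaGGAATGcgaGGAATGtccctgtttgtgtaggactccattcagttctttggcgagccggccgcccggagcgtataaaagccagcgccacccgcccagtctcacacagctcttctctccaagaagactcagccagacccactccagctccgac
Amotl2: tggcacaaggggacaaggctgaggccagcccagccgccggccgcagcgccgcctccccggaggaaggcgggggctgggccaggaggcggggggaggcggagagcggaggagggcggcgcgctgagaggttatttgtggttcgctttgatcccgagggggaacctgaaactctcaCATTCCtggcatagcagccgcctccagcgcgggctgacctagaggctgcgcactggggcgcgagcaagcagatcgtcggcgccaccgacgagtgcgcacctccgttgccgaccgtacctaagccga
Of the 9 members that fell, 8 matched a window and 7 of these held GGAATG on either strand, as did 14.2% of all windows. Ctgf held 3 copies, at 166, 101 and 92 bases before the start, Cyr61 held 1 at 113 bases before it and Amotl2 1 at 76 bases before it. Axl was the member with a window and without the motif. Members that did not fall were not searched, and the list was made of YAP and SRF targets. These shares therefore do not set apart the members that fell.

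Many extracellular matrix genes fell by small factors. Of 28 tested members, 18 fell and 0 rose, where 12.9% and 10.5% of all tested genes did. The median was -0.26, with values up to 0.073 among the 10 that did not pass. Col3a1, a fibrillar collagen, stood at 341, 335 and 338 FPKM in P_ES50, against 507, 522 and 512 FPKM in P_ES10 (-0.60 ± 0.04, limma adjusted p = 3.80e-08). Fn1, fibronectin, averaged 927 ± 15.9 FPKM in P_ES50 and 1226 ± 15.1 FPKM in P_ES10 (-0.40 ± 0.03, limma adjusted p = 3.84e-08). Col1a1, the main fibrillar collagen of the culture, averaged 1241 ± 14.2 FPKM in P_ES50 and 1494 ± 39.1 FPKM in P_ES10 (-0.27 ± 0.03, limma adjusted p = 4.46e-05). Postn, a matrix protein of activated fibroblasts, fell by 0.81 ± 0.10 (limma adjusted p = 2.07e-05). The fibroblast markers hold several of the same genes, and 4 of their 5 tested members fell and 0 rose, so their part in the fall of the matrix list was not tested.

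**Figure D4:**
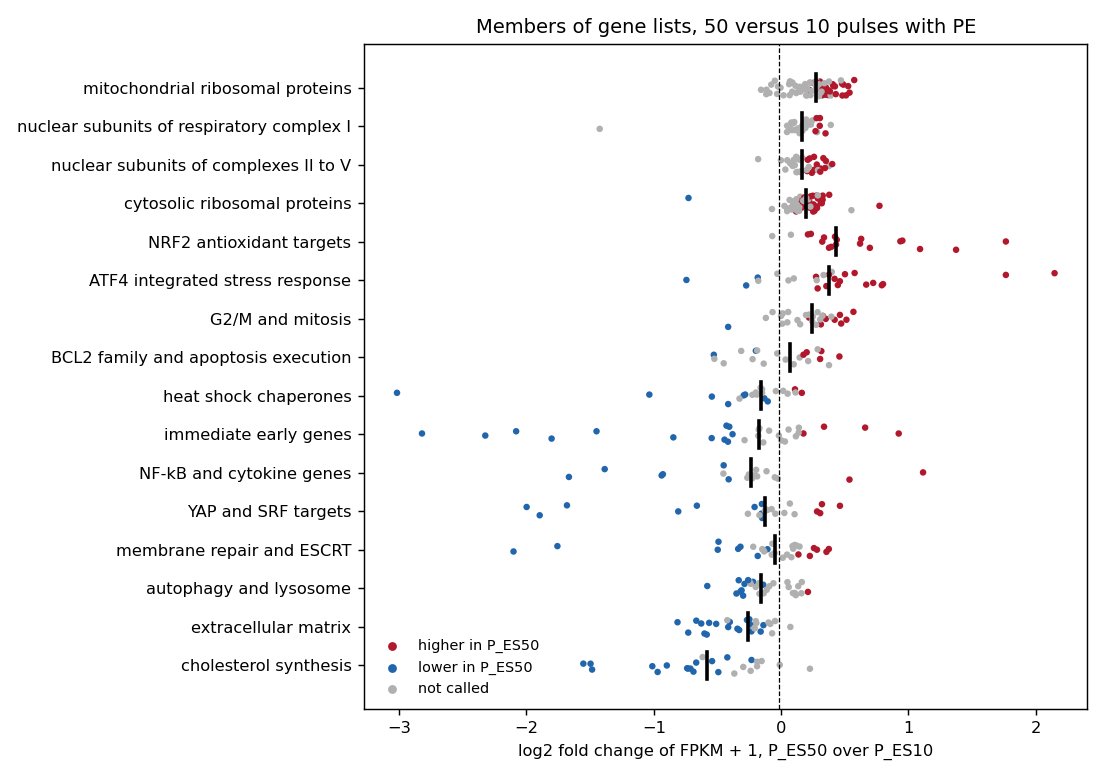
Log2 fold change of P_ES50 over P_ES10 of the tested members of 16 gene lists, with 1 point per gene, colour for the call and a bar at the list's median; the dashed line is the median of all tested genes (-0.018). The cholesterol list has a median of -0.58 and the NRF2 list one of 0.43; when scaled to total reads every median of a list right of the line falls below 0, and the membrane repair median is 0.005 when scaled to nuclear reads.

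Ribosomal protein genes and nuclear subunits of the respiratory chain were slightly higher in P_ES50 by their medians. Scaling to total reads moves nuclear genes down, so these medians turn below 0 by construction. On log2(FPKM + 1) low genes moved less than high ones, such as Lum from -0.73 to -1.24 and Rpsa from 0.32 to -0.49. Relative to the median gene the medians were then 0.087 for cytosolic and 0.21 for mitochondrial ribosomal proteins and 0.073 for complex I. These values therefore also depend on the level of the genes. Of 60 tested cytosolic ribosomal protein genes 32 rose and 1 fell (median 0.20, -0.61 when scaled to total reads), and of 70 mitochondrial ribosomal protein genes 27 rose and 0 fell (median 0.27, -0.49 when scaled to total reads). Rpsa, a ribosomal protein of the small subunit, averaged 801 ± 24.0 FPKM in P_ES50 and 642 ± 14.5 FPKM in P_ES10 (0.32 ± 0.04, limma adjusted p = 2.48e-05), and the change was 0.0 after quantile normalization and -0.49 when scaled to total reads. Ribosomal protein genes took 3.57 ± 0.0790% of nuclear reads in P_ES50 and 2.97 ± 0.0276% in P_ES10 (exact permutation p = 0.1, the smallest possible). The nuclear-encoded partners of the mitochondrial mRNAs moved far less than those mRNAs. Of 30 nuclear subunits of complex I 5 rose and 0 fell, and among 35 such subunits of the other complexes, II to V, 13 were higher and 0 lower, both with a median of 0.17 that was -0.63 when scaled to total reads. Over all tested genes 10.5% rose, and the 16.7% of complex I subunits called lay below the 23.4% of all genes. Tfam, the packaging and transcription factor of mitochondrial DNA, averaged 16.3 ± 2.10 FPKM in P_ES50 and 12.01 ± 0.624 FPKM in P_ES10 (0.41 ± 0.08, limma adjusted p = 2.02e-03, -0.35 when scaled to total reads). Of 22 genes of mitochondrial transcription and RNA turnover, 2 rose and 2 fell.

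Cell cycle and cell death genes moved in both directions, most by small amounts. Of 29 genes of G2 and mitosis 9 rose and 1 fell (median 0.24, -0.47 when scaled to total reads), where 10.5% and 12.9% of all tested genes did. Against P cells 17 of them fell and 1 rose after 10 pulses, and 8 fell and 1 rose after 50 pulses. Of all tested genes 9.66% and 14.2% fell in these comparisons. They share the P libraries with each other and their pulsed libraries with the comparison of P_ES50 and P_ES10. Cdk1, the mitotic kinase, averaged 47.6 ± 2.91 FPKM in P_ES50 and 38.1 ± 0.596 FPKM in P_ES10 (0.31 ± 0.04, limma adjusted p = 9.54e-05, -0.48 when scaled to total reads), with 49.1 ± 1.28 FPKM in P cells. Of 20 genes of the BCL2 family and of apoptosis execution 5 rose and 2 fell, or 7 of 20 called where 23.4% of all tested genes were. Bak1, a pore-forming death effector, averaged 34.3 ± 0.579 FPKM in P_ES50 and 24.7 ± 2.04 FPKM in P_ES10 (0.46 ± 0.07, limma adjusted p = 1.22e-04, -0.33 when scaled to total reads). Bax, its relative, rose by 0.20 ± 0.06 (limma adjusted p = 0.0270, -0.60 when scaled to total reads), a call lost without any 1 of 4 libraries (adjusted p 0.0754 to 0.0958). Pmaip1, a BH3-only trigger also called NOXA, fell by 0.53 ± 0.07 (limma adjusted p = 4.82e-05). Bcl2 had 2.30 ± 0.488 FPKM in P_ES50 and 3.73 ± 0.452 FPKM in P_ES10 and did not pass the test (-0.52 ± 0.20, limma adjusted p = 0.0720), but it passed with only the 6 libraries in the fit (adjusted p = 0.0244). Of 18 p53 targets 5 rose and 7 fell, or 66.7% called against 23.4% of all genes. Plk2, a kinase of the same family as Plk3, fell by 0.97 ± 0.04 (limma adjusted p = 3.47e-10). Also lower was Gadd45b, a growth arrest gene, with 124 ± 4.57 FPKM in P_ES50 and 317 ± 8.39 FPKM in P_ES10 (-1.35 ± 0.04, limma adjusted p = 6.15e-12).

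More noncoding genes fell than rose in the small nucleolar, microRNA and long intergenic classes. Of 266 tested small nucleolar RNA genes 44 fell and 2 rose, and of 199 tested microRNA genes 19 fell and 6 rose. Of 147 long intergenic RNAs 5 fell and 0 rose. Over all tested genes 12.9% fell and 10.5% rose. The share that fell was above this for small nucleolar RNA genes and below it for microRNA and long intergenic RNA genes. Many such genes lie within host genes, and reads of the small RNA and of its host cannot be told apart here. Of 28 genes of autophagy and the lysosome 10 fell and 1 rose, with a median of -0.16. Muscle identity genes moved in both directions. Myod1, a master regulator of skeletal muscle, averaged 35.3 ± 1.06 FPKM in P_ES50 and 56.5 ± 0.494 FPKM in P_ES10 (-0.66 ± 0.06, limma adjusted p = 7.97e-07). Cdh15, the cadherin of muscle precursors, averaged 88.2 ± 0.818 FPKM in P_ES50 and 60.5 ± 2.33 FPKM in P_ES10 (0.54 ± 0.04, limma adjusted p = 8.04e-08, -0.26 when scaled to total reads).

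The change between 50 and 10 pulses was set beside the same change without PE, ES50 over ES10, which shares no library with it. Without PE 8853 genes were called, 74.3% of those tested, of which 3932 were higher (33.0%) and 4921 lower (41.3%). Of the 1249 genes higher with PE, 916 (73.3%) were higher without PE and 205 (16.4%) lower; the 916 made up 23.3% of the genes higher without PE. Of the 1535 genes lower with PE, 1185 (77.2%) were lower without PE and 173 (11.3%) higher; the 1185 made up 24.1% of the genes lower without PE. A test of the difference between both changes called 7098 genes, or 59.6% of those tested, 3849 with a higher value with PE (32.3%) and 3249 with a lower one (27.3%). Scaled to total reads these were 10645 and 34 genes. ES50 libraries held 1230554 to 1466851 nuclear reads, so low genes in that group rest on few reads.

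The mitochondrial mRNAs rose in both settings and by less with PE, and all 13 passed the test of the difference. Mt-nd1, a complex I subunit, changed by 3.65 ± 0.06 with PE and 6.91 ± 0.06 without. Some stress genes differed in direction. Hmox1 rose with PE and fell without it, from a similar level after 10 pulses, with 78.8 ± 13.3 FPKM in ES50 and 1152 ± 98.1 FPKM in ES10 (-3.86 ± 0.08, difference 4.81 ± 0.12, limma adjusted p = 8.93e-14). Slc7a11, Nqo1, Akr1b8, Gdf15, Phlda1 and Lif likewise rose with PE and fell without it, with differences of 2.27 to 4.62. Of the 19 NRF2 targets 8 rose and 9 fell without PE, so the list as a whole did not reverse, and of the 25 ATF4 targets 3 rose and 17 fell, where 33.0% of all tested genes rose and 41.3% fell. Ftl1, a ferritin subunit of the NRF2 list, rose in both settings, by 0.44 ± 0.04 with PE and 1.29 ± 0.04 without. Cyr61, Ctgf and Amotl2 did the reverse. Ctgf had 116 ± 12.1 FPKM in ES50 and 42.2 ± 3.39 FPKM in ES10 (1.43 ± 0.07, difference -3.11 ± 0.10, limma adjusted p = 1.27e-12), and across the list 19 YAP and SRF targets rose and 4 fell without PE. Fos fell with PE and did not pass the test without it (-0.16 ± 0.12, limma adjusted p = 0.229), a difference of -2.66 ± 0.17 (limma adjusted p = 2.46e-09). Fosb, Klf4, Myadm and Ahnak fell in both settings. The matrix list fell further without PE, with 28 of 28 members lower there at a median of -2.45, and 26 of 28 differed in that direction.

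**Figure D5:**
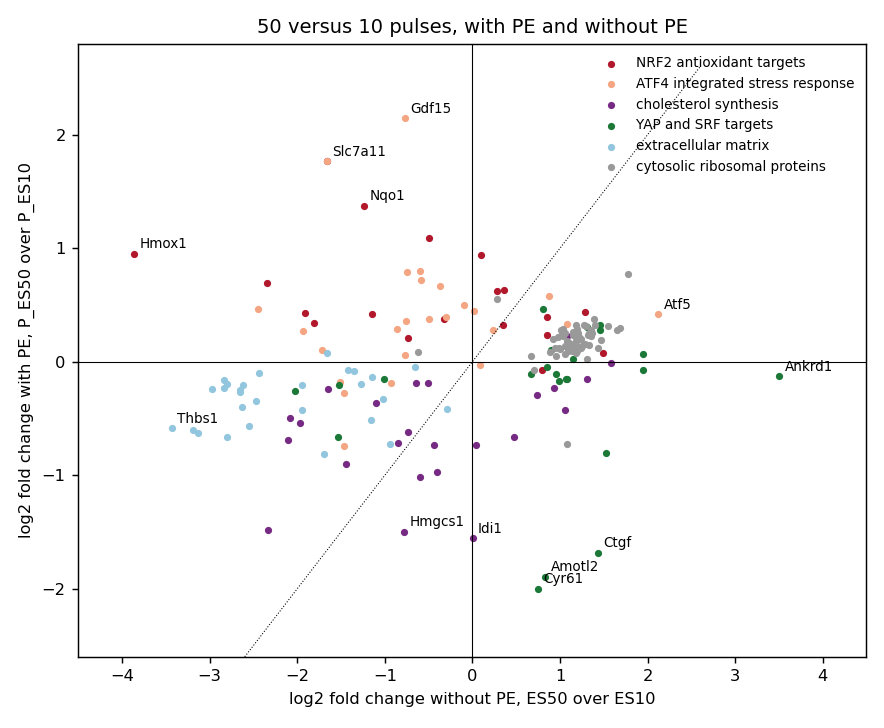
Log2 fold change of 50 over 10 pulses with PE (vertical) against that without PE (horizontal) for members of 6 gene lists, with the dotted line at equal change. Hmox1 (0.95 with PE, -3.86 without), Slc7a11, Nqo1 and Gdf15 lie at upper left, Atf5 (0.42 with PE, 2.12 without) at upper right, Cyr61, Ctgf and Amotl2 at lower right, and matrix genes at lower left; scaled to total reads the medians with PE of the NRF2, ATF4 and ribosomal protein lists are -0.37, -0.38 and -0.61.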

How the data were processed

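The deposited table holds FPKM per gene for 32545 genes in 18 libraries, per the file headers. The authors made poly(A) libraries from 1 µg of RNA with random-hexamer priming, per the labels' protocols, and the submitters' processing notes name Rnor 6.0. Aligner, counter, annotation and strandedness are not stated in the sources at hand. Values were multiplied by gene length and divided by the smallest such product above 0 in the same library, taken as 1 read. Every result was a whole number within a tolerance of 0.01, so reads were recovered on that assumption. Genes with at least 1 FPKM in at least 3 libraries were kept, 11917 in all, and log2(FPKM + 1) was tested with limma 3.58.1 (eBayes with trend) in R 4.3.3, with 6 group means over all 18 libraries, Benjamini-Hochberg adjustment over all tested genes and a threshold of 0.05. Fold changes on this scale understate low genes. For library measures an exact permutation test, two-sided, was run in scipy 1.17.1. Tables were made in Python 3.11.15 with pandas 2.3.3 and plots with matplotlib 3.10.9.

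The members and lists were chosen with earlier results of these data known. Named genes are the 13 mitochondrial mRNAs, the 15 largest nuclear increases and decreases among calls with no overlap of libraries (and the 10 largest with a mean of at least 10 FPKM), up to 4 genes per list with the smallest adjusted p, the 5 largest differences of each sign and 24 set genes; not all are printed, and some genes are not reported here. Some further list members (Phgdh, Psph, Atf4, Ppp1r15a, Ftl1, Birc5, Myl9, Flna, Tpm1, Pdcd6ip, Actb, Actg1, Axl, Dusp5, Anxa6, Anxa7, S100a11, Chmp1a, Chmp3 and Tsg101) were picked after their values were seen. Of 42 lists, 41 had tested members; symbols that occur for more than 1 gene were left out. The steps were tested on simulated data. Alternatives were another pseudocount, other filters, 3 scalings, a replicate block, limma-voom on recovered reads, fits of fewer libraries, thinned reads and leaving out each library. Replicates of 1 group correlated at 0.979 to 0.988 over genes and differed by more than sampling noise.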

Additional observations from a re-analysis of the deposited data

Results flagged for a closer look

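Each result here was flagged because the change between 50 and 10 pulses differed between cells with PE and cells without it, by the test of the difference itself in limma; differences are the log2 change with PE minus that without. It called 7098 genes. The largest negative differences under the naming rule were those of Ndufa1 (-5.97), Ankrd1 (-3.63), Ctgf (-3.11), Synpo2l (-3.08) and Palld (-3.04). Ndufa1, a complex I subunit, varied widely within groups, with 379, 91.0 and 0 FPKM in ES50, and with 0.972, 1.27 and 2.19 FPKM in P_ES50 and 0.180, 4.17 and 44.3 FPKM in P_ES10. Its change with PE was not called (-1.42 ± 1.58), and most of the difference comes from the change without PE (4.54 ± 1.58). Ankrd1 had 1048 ± 21.0 FPKM in ES50 and 91.4 ± 4.46 FPKM in ES10, against no call with PE. Palld and Synpo2l, both actin-associated proteins of muscle cells, rose in both settings, with Palld at 76.6 ± 3.25 FPKM in ES50 and 6.36 ± 0.297 FPKM in ES10.

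The largest positive differences were those of Adgre5 (5.30), SNORD79 (5.25), Mir22 (5.24), Cxcl1 (4.83) and Hmox1 (4.81). Adgre5, an adhesion receptor, had 79.0 ± 4.51 FPKM in P_ES50 and 73.4 ± 2.02 FPKM in P_ES10, which did not pass the test, against 1.28 ± 1.17 FPKM in ES50 and 76.0 ± 2.12 FPKM in ES10. Cxcl1, a neutrophil-attracting chemokine, had 121 ± 3.88 FPKM in P_ES50 and 166 ± 7.72 FPKM in P_ES10, against 3.42 ± 3.70 FPKM in ES50 and 123 ± 5.33 FPKM in ES10.

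Genes of the largest changes with PE that were called in opposite directions without PE were flagged too. Cyr61 (-2.74), Amotl2 (-2.73) and Klf2 (-2.31) fell with PE and rose without it. Nabp1 (1.77), Ampd3 (2.09), Phlda1 (2.27), Akr1b8 (2.56), Nqo1 (2.61), Mir3556a (2.86), Gdf15 (2.92), Slc7a11 (3.43), Mirlet7b (4.09) and Lif (4.62) rose with PE and fell without it. SNORD79, Ampd3, Mir3556a and Mirlet7b had no reads in the ES50 libraries, so their differences depend on the pseudocount and are no bounds. The calls of Nabp1, Mir3556a and Mirlet7b with PE were lost when single libraries were left out. ES50 libraries held 1230554 to 1466851 nuclear reads, and the part of that depth in these differences was not tested.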

How the results depend on the processing

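The count of 2784 genes was 4824 without the 3 ES50 libraries, with all 2784 called in the same direction, 4419 with limma-voom (2765 of the 2784 called in the same direction) and 10403 scaled to total reads (55 higher, 10348 lower). It was 3763 with the 6 libraries alone, 3392 with thinned reads, 3000 after quantile normalization, 2906 scaled to nuclear reads, 2721 without a filter, 2584 with a pseudocount of 0.1, 2373 of 6907 genes with a mean of at least 5 FPKM, and 2055 to 2271 leaving out 1 library. With the replicate block it was 2695; same-numbered libraries correlated at only 0.015 to 0.029 in their deviations, so the numbers do not pair the samples, although each library correlated best with its own number. The difference between the changes with and without PE gave 10679 genes scaled to total reads (10645 higher, 34 lower), 7060 with the replicate block, and 6680 to 7591 leaving out 1 library; the cause of these movements was not tested. The mitochondrial share differed by 41.6 to 43.1 points leaving out 1 library. After quantile normalization Mt-cox3 was -0.030, Mt-co1 -0.20, Acta2 -0.34 and Rpsa 0.0. Of 174 named genes called, 17 lost the call when 1 of the 6 libraries was left out, and 0 changed direction in other settings relative to the median gene. Depth limits low nuclear genes in P_ES50.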
